A study of Mus musculus with 15 samples.

Results

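The killer cell lectin-like receptor genes described here are Klrg1, Klrk1, Klrd1, Klrc1, Klrb1b, Klrb1c, Klrb1f and Klre1, 8 of the 22180 genes that had an array feature annotated with their symbol alone. The members were chosen by name, and each had 1 such feature, so no choice between features was needed. Klrb1c had 1 more feature, annotated with a second gene as well, which was left out. Their RNA was read in lung group 2 innate lymphoid cells (ILC2s), lymphocytes that carry no rearranged antigen receptor and secrete type 2 cytokines. The 15 Affymetrix arrays fell into 5 groups of 3 biological replicates, as the labels call them. Naive adult females and naive adult males were 8 weeks old and untreated, effector adult females and males had received IL-33 intranasally on 3 consecutive days and were sampled 1 day after the last dose, and naive neonates were 10 days old, with no sex given. The labels give no genotype or strain, and no age for effector adults. Adults dosed with vehicle alone are not among the labelled groups, so dosing itself cannot be told apart from IL-33. The sources used here do not name the markers by which the cells were isolated, so it is not known whether the protein of any of these genes served for that. Nothing says how many mice stand behind a replicate, so p-values measure only the spread between these arrays.

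Killer cell lectin-like receptors are C-type lectin proteins of the cell surface, known mostly from natural killer (NK) cells, where they weigh signals that restrain against signals that trigger killing. Inhibitory members carry a tyrosine motif that recruits phosphatases such as Ptpn6, Ptpn11 and Inpp5d, and activating members have no signalling tail of their own and pair with adaptor proteins encoded by Hcst, Tyrobp or Fcer1g. In the lung, KLRG1 is widely used as a surface marker of mature ILC2s, while some of the other receptors are used to recognise NK cells and group 1 innate lymphoid cells.

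On these arrays Klrg1 gave a strong signal in every group and did not pass the test in any comparison, Klrb1b was higher in effector than in naive adults, and the other 6 members lay at or near the level of genes that lymphocytes do not use. Levels are given on the log2 scale as deposited, where a step of 1 is a doubling, and they are compared only within a gene, since features of different genes respond differently. As a yardstick of background, the features of olfactory and vomeronasal receptors, which serve sensory neurons, had an upper quartile of 4.09 in naive adults, 3.40 in effector adults and 3.79 in neonates (1405 features). By sex this upper quartile was 3.95 (females) and 4.21 (males) in naive adults and 3.39 (females) and 3.40 (males) in effector adults.

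All 8 members lie on chromosome 6. Klrg1 stands alone, with 109 protein-coding genes between it and the first gene of the NK gene complex, and the other members lie within the complex in the order Klrb1c, Klrb1b, Klrb1f, Klre1, Klrd1, Klrk1 and Klrc1. The bases upstream of the start site are shown for Klrb1b, the member that rose in effector adults, and for Klrb1f, its relative that did not. Each run is 250 bases upstream of a RefSeq start site, written 5′ to 3′ on the gene's strand, build GRCm38.p6. The Klrb1b window is chr6:128826316-128826565 (minus strand) and the Klrb1f window is chr6:129045651-129045900 (plus strand). Capitals mark the longest exact run that both windows share.
Klrb1b: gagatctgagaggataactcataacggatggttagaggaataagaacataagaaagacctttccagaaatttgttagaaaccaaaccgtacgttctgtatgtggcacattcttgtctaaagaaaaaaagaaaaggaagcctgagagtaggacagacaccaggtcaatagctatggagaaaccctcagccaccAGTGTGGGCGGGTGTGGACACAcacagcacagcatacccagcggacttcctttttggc
Klrb1f: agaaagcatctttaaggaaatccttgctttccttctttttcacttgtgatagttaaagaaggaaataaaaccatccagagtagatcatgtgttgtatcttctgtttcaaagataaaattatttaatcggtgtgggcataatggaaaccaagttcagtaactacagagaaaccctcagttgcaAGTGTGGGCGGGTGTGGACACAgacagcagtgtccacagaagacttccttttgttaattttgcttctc
The shared run was 22 bases long and lay at positions -58 to -37 from the Klrb1b start and -68 to -47 from the Klrb1f start. Among the other 14 pairs of the 6 members with an entry in the table, the longest shared run was 7 to 10 bases. Of all 32851 upstream windows, 3 held the 22-base run on the gene's strand, namely both start sites of Klrb1b and that of Klrb1f, and 0 held it on the other strand. Motifs were searched on both strands. The Klrb1b window held no GATA motif (AGATAA or AGATAG, or either with T in place of the first A, which 26.5% of all windows held) and no Runx motif (TGTGGT, which 14.0% of all windows held). The Klrb1f window held 2 GATA motifs, and the Klrb1c window held 1 Runx motif. The window of the first Klre1 start site held 1 Runx motif, and the Klrk1 and Klrc1 windows each held 1 GATA and 1 Runx motif. None of the windows of the 6 members held an AP-1 motif (TGAGTCA or TGACTCA, which 4.46% of all windows held). A match is a description of the letters in the window and not a binding site.

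**Figure D1:**
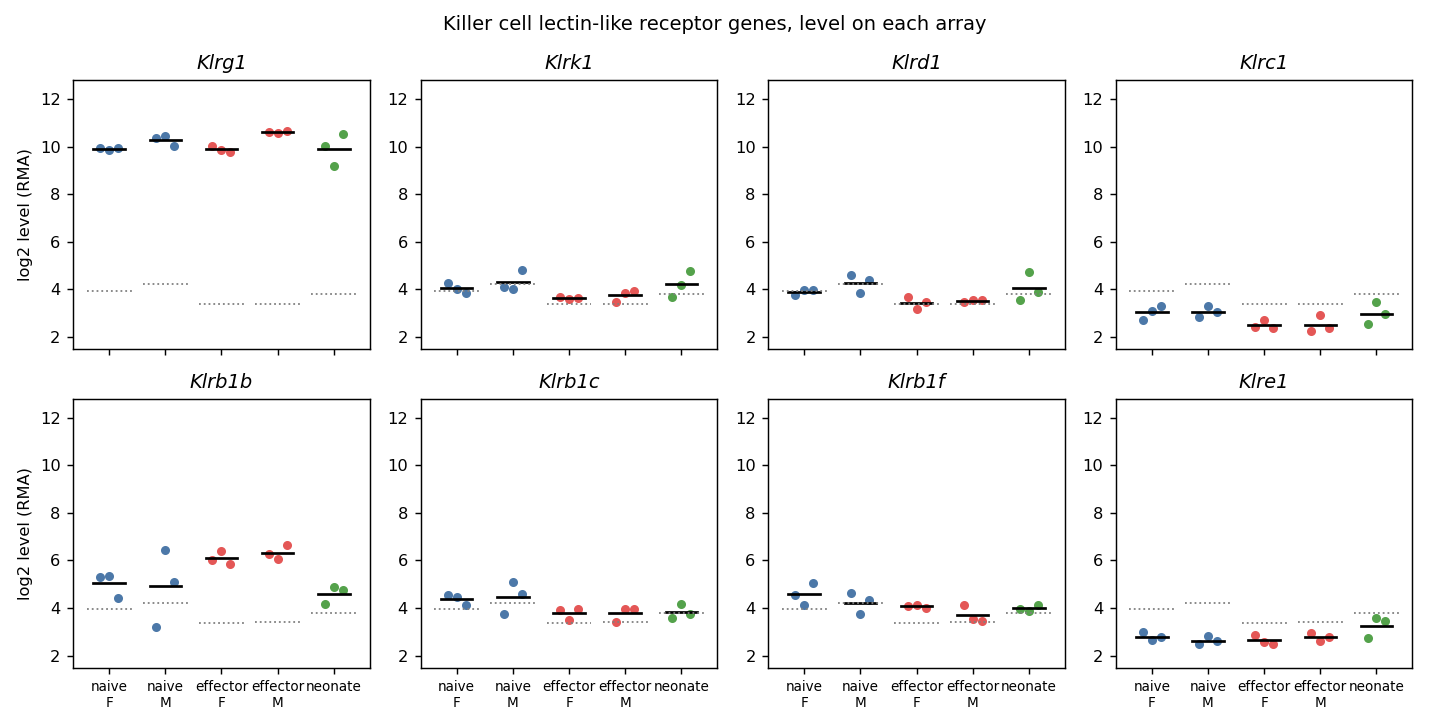
Level of each of the 8 genes on each of the 15 arrays (log2, vertical axis) by group (horizontal axis; F, female; M, male). Points are arrays, black bars are group means of 3 arrays, and dotted lines are the upper quartile of the sensory receptor features of the group. Klrg1 sits between 9.19 and 10.64 on all arrays, Klrb1b is the other gene clearly above the dotted lines in effector adults, and Klrc1 and Klre1 lie below them on every array.

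Klrg1 encodes an inhibitory receptor that binds cadherins. Among naive adults its level was 9.95, 9.84 and 9.95 in females and 10.34, 10.43 and 10.02 in males. Among effector adults it was 10.02, 9.85 and 9.77 in females and 10.63, 10.59 and 10.64 in males, and the neonates had 10.03, 9.19 and 10.53. All 15 arrays lay far above the background of their group, and the ranges of naive adults, effector adults and neonates overlapped. Effector adults differed from naive adults by 0.16 ± 0.18 (moderated SE, n = 6 arrays each), with a 95% interval of -0.21 to 0.54 (limma, Benjamini-Hochberg adjusted p = 0.508). Neonates differed from naive adults by -0.17 ± 0.22 (interval -0.63 to 0.29; limma adjusted p = 0.669) and from effector adults by -0.33 ± 0.22 (interval -0.79 to 0.12; limma adjusted p = 0.294). The neonatal arrays spread most, and neonate array 2 was the lowest of all 15. Without it the neonatal differences were 0.19 and 0.03, and without neonate array 3, the highest, the difference from effector adults was -0.64 and passed (limma adjusted p = 0.031).

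By sex, the Klrg1 values of effector females (9.77 to 10.02) lay below those of effector males (10.59 to 10.64) with no overlap, and so did those of naive females (9.84 to 9.95) and naive males (10.02 to 10.43). The female minus male difference was -0.74 ± 0.25 in effector adults (interval -1.27 to -0.21) and -0.35 ± 0.25 in naive adults (interval -0.88 to 0.18; SE, n = 3 arrays each). Neither passed over all genes (limma adjusted p = 1 and 0.693; unadjusted p = 0.00931 and 0.182). Leaving out each array in turn gave -0.81 to -0.69 in effector adults and -0.47 to -0.26 in naive adults, with no call. The sexes of effector adults differed at 0.0308% of all genes tested and those of naive adults at 0.209%, and 0 of the 6 members tested were called in either. The response to dosing was -0.04 ± 0.25 in females and 0.36 ± 0.25 in males, a difference of -0.39 ± 0.35 that did not pass (limma adjusted p = 0.982).

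Klrb1b encodes NKR-P1B, an inhibitory receptor that recognises the lectin Clr-b, the product of Clec2d. Among naive adults its level was 5.32, 5.36 and 4.44 in females and 3.22, 6.45 and 5.10 in males. Among effector adults it was 6.03, 6.41 and 5.84 in females and 6.29, 6.07 and 6.63 in males. The 6 effector values lay close together and above 5 of the 6 naive values, while naive male array 2 fell within the effector range and naive male array 1 lay below the background of its group. Klrb1b was higher in effector than in naive adults by 1.23 ± 0.39 (SE, n = 6 arrays each; interval 0.40 to 2.06; limma adjusted p = 0.0229), a 2.35-fold difference. The difference was 1.06 ± 0.55 in females and 1.40 ± 0.55 in males, neither of which passed alone (limma adjusted p = 0.232 and 0.0743), and the test of the difference between them gave -0.35 ± 0.77 (limma adjusted p = 0.99). The wide spread of naive males bears on these values. Without naive male array 1 the difference was 0.80 over both sexes and 0.55 in males, and without naive male array 2 it was 1.61 and 2.17. The call over both sexes ended when effector female array 2, effector male array 3 or naive female array 3 was left out (1.15, 1.16 and 1.08; limma adjusted p = 0.0548, 0.0533 and 0.0574, over a range of 0.00085 to 0.0574 for the 12 arrays left out in turn).

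In neonates Klrb1b was at 4.17, 4.89 and 4.74. These values lay below all 6 effector values and within the range of naive adults. Neonates were lower than effector adults by -1.61 ± 0.47 (SE, n = 3 and 6 arrays; interval -2.62 to -0.60; limma adjusted p = 0.0261), and they differed from naive adults by -0.38 ± 0.47 (interval -1.39 to 0.63; limma adjusted p = 0.672). The call against effector adults ended when neonate array 1, neonate array 2, effector male array 3 or effector female array 2 was left out (-1.4, -1.76, -1.53 and -1.53; limma adjusted p = 0.103, 0.057, 0.0539 and 0.0555, within a range of 0.0369 to 0.103 over the 9 arrays left out in turn). The 3 genes whose pattern over the 15 arrays was most like that of Klrb1b, among all tested genes with a proper name, were Nop16 (Pearson r = 0.915), Ttc1 (0.892) and Mettl14 (0.887), given as a description of arrays that share the 5 groups.

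**Figure D2:**
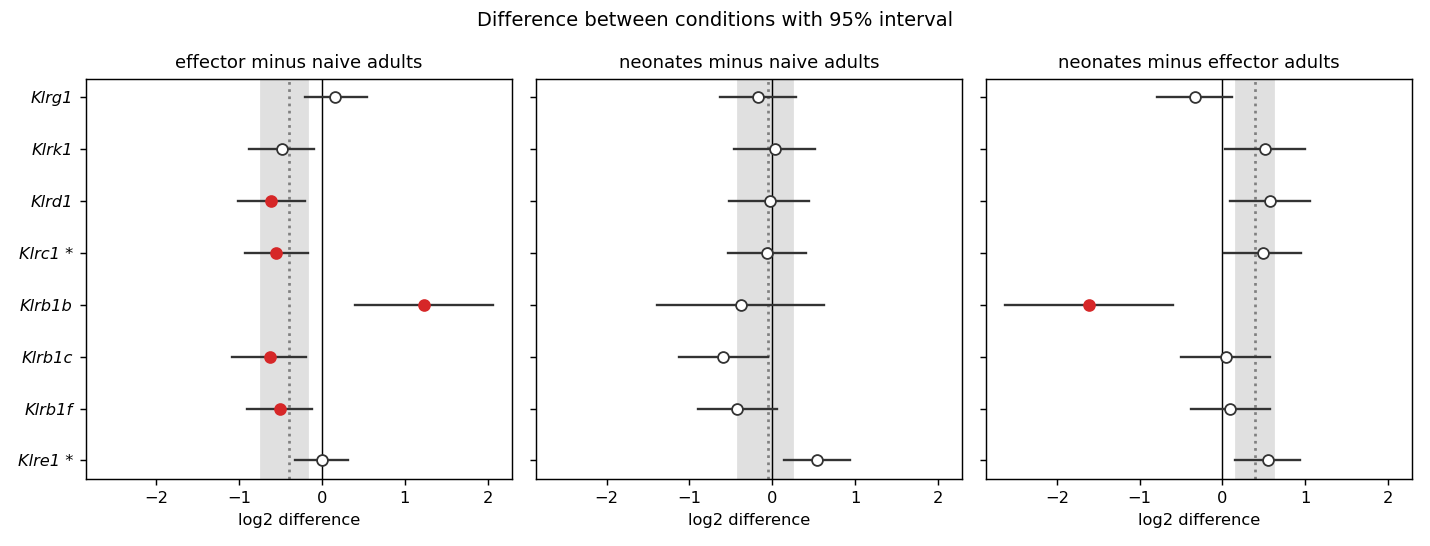
Difference in log2 level (horizontal axis) for each gene in the 3 comparisons of conditions, with 95% intervals of the limma fit. Filled red points passed at an adjusted p under 0.05, open points did not, and genes with an asterisk were fitted without the filter on dim features. The grey band spans the quartiles of 1394 sensory receptor genes and the dotted line is their median. In the effector comparison Klrb1b lies to the right of the band and the called lower genes lie inside it.

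Klrb1c and Klrb1f belong to the same NKR-P1 subfamily. Klrb1c encodes NK1.1, an activating receptor and the classical marker of NK cells in some mouse strains. It was at 4.57, 4.48 and 4.12 (females) and at 3.74, 5.09 and 4.58 (males) in naive adults, at 3.92, 3.49 and 3.98 (females) and at 3.43, 3.97 and 3.98 (males) in effector adults, and at 3.58, 4.19 and 3.74 in neonates. The naive values reached highest but overlapped with the effector range through naive male array 1. Klrb1c was lower in effector than in naive adults by -0.63 ± 0.21 (SE, n = 6 arrays each; limma adjusted p = 0.0274). The call ended without naive female array 1 or 2, naive male array 2, effector male array 1 or effector female array 2 (-0.59, -0.61, -0.48, -0.54 and -0.56; limma adjusted p = 0.0605, 0.0543, 0.0687, 0.0723 and 0.0726, within a range of 0.00239 to 0.0726). Neonates differed from naive adults by -0.59 ± 0.25, which did not pass (limma adjusted p = 0.158). Without naive male array 1 the neonatal difference was -0.77 and passed (limma adjusted p = 0.0327). The 3 genes most like Klrb1c over the 15 arrays were Mslnl (r = 0.901), which encodes a mesothelin-like protein, and 2 olfactory receptor genes, Olfr873 (0.882) and Olfr692 (0.869).

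Klrb1f, which encodes another NKR-P1 receptor that binds Clr lectins, was at 4.55, 4.13 and 5.06 (females) and at 4.62, 3.75 and 4.33 (males) in naive adults, at 4.08, 4.13 and 4.0 (females) and at 4.15, 3.56 and 3.47 (males) in effector adults, and at 3.97, 3.88 and 4.13 in neonates. The ranges of the 3 conditions overlapped. It was lower in effector adults by -0.51 ± 0.18 (limma adjusted p = 0.0422). Of the 12 refits without 1 adult array, 3 kept the call, those without naive female array 2, naive male array 2 or effector male array 1, and the other 9 gave -0.52 to -0.39 (limma adjusted p over all 12 from 0.013 to 0.108). Neonates differed from naive adults by -0.42 ± 0.22 (limma adjusted p = 0.264). The genes most like it were Tpcn2 (r = 0.911), Zfp955b (0.875) and Scml4 (0.870).

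Klrd1 encodes CD94, which pairs with NKG2 proteins such as that of Klrc1 to form the receptor for the non-classical class I molecule Qa-1. Klrd1 was at 3.78, 3.99 and 3.96 (females) and at 4.62, 3.84 and 4.38 (males) in naive adults, at 3.67, 3.18 and 3.46 (females) and at 3.49, 3.54 and 3.57 (males) in effector adults, and at 3.54, 4.73 and 3.90 in neonates. All 6 effector values lay below all 6 naive values, and the neonates spanned both. It was lower in effector adults by -0.61 ± 0.19 (limma adjusted p = 0.0197), and without effector female array 2 it was no longer called (-0.54; limma adjusted p = 0.0541, the highest of 10 refits). Without naive male array 1 or 3 or neonate array 2 it failed the filter on dim features and was not tested. Neonates differed from naive adults by -0.03 ± 0.23 (limma adjusted p = 0.946). Without neonate array 1 the difference from effector adults, 0.57 ± 0.23 with all arrays (limma adjusted p = 0.0871), was 0.83 and passed (limma adjusted p = 0.0277). The genes most like Klrd1 were Il20 (r = 0.887), Slc6a20b (0.881) and Rab3il1 (0.879).

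Klrk1 encodes NKG2D, an activating receptor for stress-induced ligands. It was at 4.27, 4.02 and 3.85 (females) and at 4.11, 4.03 and 4.83 (males) in naive adults, at 3.69, 3.60 and 3.64 (females) and at 3.46, 3.85 and 3.94 (males) in effector adults, and at 3.68, 4.19 and 4.77 in neonates. The naive and effector ranges met at their edges and the neonates covered most of both. Its difference of -0.48 ± 0.19 between effector and naive adults did not pass (interval -0.88 to -0.09; limma adjusted p = 0.0561). It passed with array weights, with only the adult arrays fitted and with a replicate block (limma adjusted p = 0.0168, 0.0238 and 0.0483), and without naive male array 2 (-0.56; limma adjusted p = 0.0422). With arrays shifted to a common median it was -0.35, and after quantile normalization -0.30 (limma adjusted p = 0.191 and 0.287). Without naive female array 1, naive male array 3 or neonate array 3, Klrk1 failed the filter on dim features and was not tested. Neonates differed from naive adults by 0.03 ± 0.23 (limma adjusted p = 0.956) and from effector adults by 0.51 ± 0.23 (limma adjusted p = 0.125), and without neonate array 1 the latter was 0.78 and passed (limma adjusted p = 0.0336).

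Klrc1, which encodes the inhibitory partner NKG2A, and Klre1, which encodes a receptor that pairs with the products of Klri1 and Klri2, lay below the background yardstick on all 15 arrays. Klrc1 ranged from 2.70 to 3.30 in naive adults, from 2.25 to 2.93 in effector adults and from 2.53 to 3.48 in neonates. Klre1 ranged from 2.48 to 2.99, from 2.48 to 2.96 and from 2.74 to 3.58. Both failed the filter on dim features, which asks for a level above percentile 40 of the array on at least 3 arrays. Fitted without that filter, Klrc1 differed by -0.55 ± 0.18 between effector and naive adults (limma adjusted p = 0.034), a call that 7 of 12 refits without 1 array lost (naive female array 2 or 3, naive male array 2, effector female array 1 or 3 or effector male array 1 or 3 left out; -0.53, -0.48, -0.49, -0.52, -0.52, -0.48 and -0.51), and Klre1 by 0.00 ± 0.15 (limma adjusted p = 0.986). Klre1 in neonates differed by 0.54 ± 0.19 from naive and by 0.55 ± 0.19 from effector adults (limma adjusted p = 0.0931 and 0.0565), and without neonate array 1 both were 0.80 and passed (limma adjusted p = 0.0163 and 0.0083).

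Of the 8 members, 6 passed the filter and were tested. In effector against naive adults 4 of these 6 were called, Klrb1b higher and Klrb1c, Klrb1f and Klrd1 lower, where 34.6% of all 16257 genes tested were called (23.7% higher and 10.9% lower). Klrk1, Klrd1 and Klrb1c passed the filter through naive and neonatal arrays alone, with 0 effector arrays above percentile 40, so a fall in effector adults was favoured by the filter itself. The sensory receptor genes moved the same way on these arrays. Over 1394 of them, without a filter, the effector minus naive difference had a median of -0.40 and quartiles of -0.73 and -0.17, and 384 were called lower and 4 higher. The differences of Klrb1c, Klrb1f, Klrd1, Klrk1 and Klrc1, from -0.63 to -0.48, all lay between those quartiles. The part of this background shift in the falls was not tested. The median of all tested genes was 0.03 on the deposited scale and 0.17 once the arrays had been shifted to a common median, when 83% of called genes were higher in place of 68.5%. Relative to that centre Klrb1b differed by 1.37 (limma adjusted p = 0.0112), while Klrb1c, Klrb1f and Klrd1 differed by -0.49, -0.37 and -0.47 and were no longer called (limma adjusted p = 0.0723, 0.133 and 0.0547). After a further quantile normalization Klrb1b was again the only member called, at 1.18 (limma adjusted p = 0.0465).

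**Figure D3:**
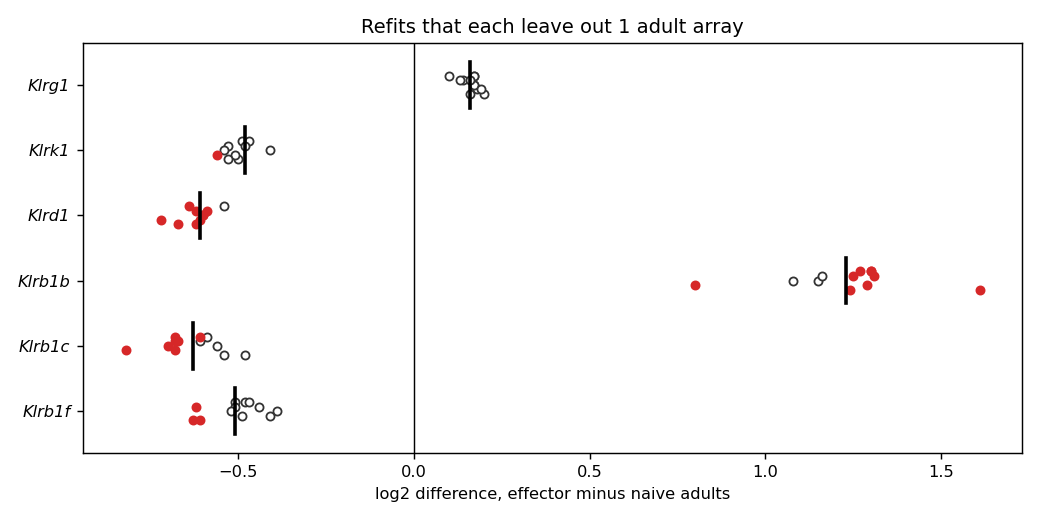
Effector minus naive difference in log2 level (horizontal axis) of the 6 tested genes, with 1 adult array left out in each point. Black bars are the values with all arrays, filled red points passed at an adjusted p under 0.05 and open points did not. Klrb1b stays between 0.80 and 1.61 and Klrg1 between 0.10 and 0.20. Refits in which a gene failed the filter on dim features are not drawn.

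In neonates against naive adults 0 of the 6 tested members were called by limma, where 10.2% of all genes were (6.04% higher and 4.12% lower), and 1 of the 6, Klrb1c, had an unadjusted p under 0.05 (0.0345), as did 25.3% of all genes. In neonates against effector adults 1 of 6 was called, Klrb1b, where 20.6% of all genes were (28.8% of them higher, or 16.4% with arrays shifted to a common median). The comparisons of effector and neonatal cells with naive adults share the 6 naive arrays. Side by side, effector and neonatal cells differed from naive adults by 1.23 and -0.38 for Klrb1b, by 0.16 and -0.17 for Klrg1, and by -0.61 and -0.03 for Klrd1. Within 1 sex, 0 of 6 members were called in effector against naive females, where 14.0% of all genes were, and 0 of 6 in effector against naive males, where 24.9% were. The unadjusted p was under 0.05 for Klrb1b, Klrb1c, Klrd1 and Klrk1 in males (0.0216, 0.0358, 0.0127 and 0.0468), where it was for 36.9% of all genes, and for none of the 6 in females, where it was for 27.1%. The difference between the responses of the sexes was called for 0% of genes by limma, with 866 genes and 0 of the 6 members at an unadjusted p under 0.05.

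In a list of adaptors and signalling genes that carry the signals of these receptors, 4 of 16 tested rose and 4 fell in effector adults, where 23.7% of all genes rose and 10.9% fell, and the median was 0.04 against 0.03 for all genes. The lists of ligands, other lectin genes, transcription factors and markers are to be read against the same shares, and for neonates against naive adults against 6.04% higher and 4.12% lower. Hcst encodes DAP10, the adaptor of NKG2D, and was abundant in every group. It was at 10.97, 10.88 and 11.06 (females) and at 10.90, 10.98 and 10.85 (males) in naive adults, at 9.56, 9.19 and 8.97 (females) and at 9.24, 9.65 and 9.28 (males) in effector adults, and at 10.45, 10.22 and 10.70 in neonates. The effector values lay below all others and the neonatal values between, without overlap. Hcst fell by 1.62 ± 0.13 in effector against naive adults (SE, n = 6 arrays each; limma adjusted p = 2.52e-07), with -1.73 ± 0.19 in females and -1.52 ± 0.19 in males, and between -1.70 and -1.55 whichever array was left out. Neonates differed from naive adults by -0.48 ± 0.16, which did not pass (limma adjusted p = 0.0715), and were higher than effector adults by 1.14 ± 0.16 (limma adjusted p = 0.000242).

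Tyrobp, which encodes the adaptor DAP12, was lower in effector adults by -0.88 ± 0.28 (4.66 ± 0.39 against 5.54 ± 0.60, SD, n = 6 each; limma adjusted p = 0.0265), a call kept in 6 of 12 refits without 1 array. It ended without naive female array 2 or 3, naive male array 2, effector female array 1 or 3 or effector male array 1 (-0.85, -0.85, -0.78, -0.84, -0.81 and -0.79). By sex it was -0.60 in females and -1.16 in males (limma adjusted p = 0.368 and 0.0479), a difference of 0.55 that did not pass (limma adjusted p = 0.982). Plcg2, a phospholipase downstream of these adaptors, rose by 1.97 ± 0.27 (limma adjusted p = 6.22e-05), and its 6 effector values, 6.42 to 7.21, lay above its naive values, 3.87 to 5.48. Ptpn11, which encodes the phosphatase SHP-2, rose by 1.13 ± 0.19 (limma adjusted p = 0.000268), with 7.60 to 7.96 in effector and 6.29 to 7.03 in naive adults. In neonates 2 of the 16 genes were higher than in naive adults and 0 lower, with a median of 0.14 against 0.02 for all genes, and Hcst, Tyrobp, Plcg2 and Ptpn11 did not pass there.

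**Figure D4:**
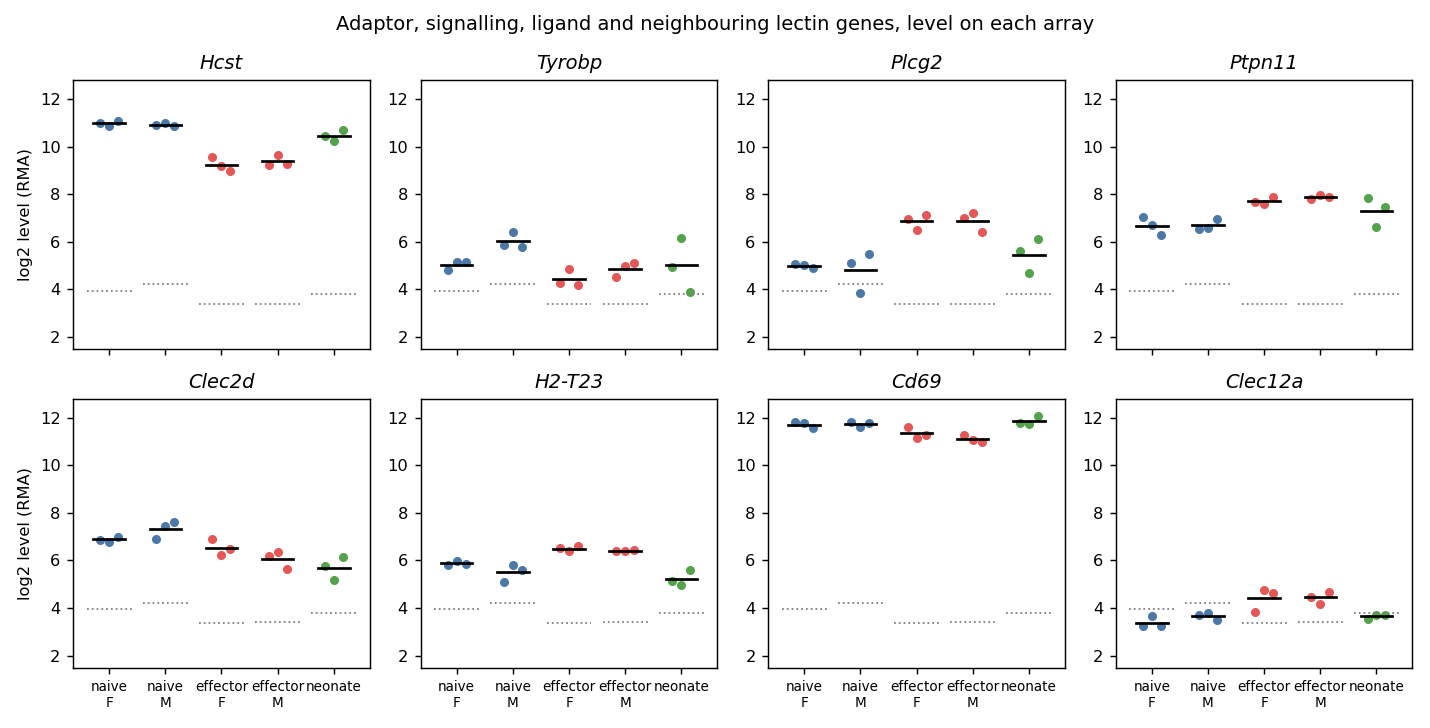
Level of 8 genes of the receptors' pathway and neighbourhood on each of the 15 arrays (log2, vertical axis) by group (horizontal axis; F, female; M, male). Points are arrays, black bars are group means of 3 arrays, and dotted lines are the upper quartile of the sensory receptor features of the group. Hcst is lower on all 6 effector arrays, from 8.97 to 9.65, than on all naive arrays, and Plcg2, Ptpn11, H2-T23 and Clec12a are higher there without overlap. The naive and neonatal values of Clec12a lie below the dotted lines.

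Among genes of the receptors' ligands 1 of 10 tested rose and 1 fell in effector adults, with a median of -0.10. H2-T23, which encodes Qa-1, the ligand of the receptor formed by Klrd1 and Klrc1, rose by 0.77 ± 0.14 (limma adjusted p = 0.000657), and neonates were lower than effector adults by -1.22 ± 0.17 (limma adjusted p = 0.000255). Clec2d, which encodes Clr-b, the ligand of NKR-P1B, was lower in effector adults by -0.80 ± 0.19 (limma adjusted p = 0.00482), with -0.34 ± 0.27 in females, which did not pass, and -1.26 ± 0.27 in males, which did (limma adjusted p = 0.467 and 0.00354). The test of the difference between the sexes gave 0.92 ± 0.39 and did not pass (limma adjusted p = 0.881). Neonates were lower than naive adults by -1.41 ± 0.24 (limma adjusted p = 0.00156). Its level was 6.79 to 6.98 (females) and 6.90 to 7.62 (males) in naive adults, 6.21 to 6.92 (females) and 5.65 to 6.36 (males) in effector adults and 5.16 to 6.13 in neonates, so all neonatal values lay below all naive values.

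Of 31 other genes of the killer lectin-like family and its lectin neighbours, 21 had a feature of their symbol alone and 8 were tested. In effector adults 1 of these 8 rose and 2 fell, with a median of 0.00. Clec12a, an inhibitory myeloid lectin gene, rose by 0.91 ± 0.16 (3.52 ± 0.24 to 4.44 ± 0.36, SD, n = 6 each; limma adjusted p = 0.000509). It passed the filter through 5 effector arrays alone, and all its naive and neonatal values lay below background, so the filter favoured its rise and the size of the difference is uncertain. Cd69, which encodes a lectin that retains lymphocytes in tissue, was lower by -0.50 ± 0.12 (11.22 ± 0.22 against 11.72 ± 0.11; limma adjusted p = 0.0051; -0.37 in females and -0.62 in males, limma adjusted p = 0.172 and 0.0158, and 0.982 for their difference), and the third was Clec2d. In neonates against naive adults 0 of the 8 were higher and 1 lower, again Clec2d. Genes from Klrb1a to Klra2, the extent of the NK gene complex in RefSeq, were also read by position, a choice made after values were seen. Of 44 with a feature, 22 were tested, 4 were higher and 8 lower in effector adults, against 23.7% and 10.9% of all genes. These counts repeat calls given above, Klrb1b and Clec12a among the higher genes and Klrb1c, Klrb1f, Klrd1, Clec2d and Cd69 among the lower. Of the 8 lower genes, 4 (Klrb1c, Klrd1, Clec7a and Klrb1-ps1) had 0 effector arrays above percentile 40, so the filter favoured their fall, and the part of the background shift in them was not tested. The largest differences were those of Gabarapl1, an autophagy gene that lies among the lectin genes, at 2.05 (limma adjusted p = 0.000275), and of the pseudogene Klrb1-ps1 at -1.58 (limma adjusted p = 0.000615). Klrb1-ps1 passed the filter through 3 naive arrays alone, its effector and neonatal means of 2.75 and 3.04 lay below background, and it was tested in 9 of the 12 refits without 1 array.

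In a list of 13 tested transcription factors, chosen as possible regulators of these receptor genes, 4 rose and 2 fell in effector adults, with a median of 0.00. Whether these factors act on the receptor genes was not tested. Irf4 rose by 3.69 ± 0.24, Prdm1 by 1.04 ± 0.18 and Nfil3 by 0.94 ± 0.14, and Bach2, a repressor of effector programmes, fell by 1.77 ± 0.24 (limma adjusted p = 1.81e-08, 0.000426, 0.000143 and 4.44e-05). In neonates 4 of the 13 were higher than in naive adults and 0 lower.

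The labelled cell type was read from its markers. Of 13 ILC2 markers 10 had a feature of their symbol alone, and the means of all 10 lay above background in naive adults, effector adults and neonates, with Gata3 at 8.83 ± 0.22 (SD, n = 6), 8.72 ± 0.18 (SD, n = 6) and 8.75 ± 0.07 (SD, n = 3). Of these 10, 4 rose and 1 fell in effector adults, and 3 were higher and 1 lower in neonates than in naive adults. The largest effector differences were those of Il13 (3.07 ± 0.14), Il5 (1.46 ± 0.21), Il7r (-1.11 ± 0.14) and Arg1 (0.59 ± 0.11; limma adjusted p = 4.88e-10, 9.79e-05, 2.82e-05 and 0.0005). Gata3 did not pass there (limma adjusted p = 0.51). Of 16 NK and group 1 innate lymphoid cell markers with a feature, 13 were tested, 4 rose and 1 fell in effector adults, and the mean level of the list was 5.11 to 5.29 on naive, 5.34 to 5.51 on effector and 5.33 to 5.48 on neonatal arrays. Of these 16, 10 lay above background in naive adults, 15 in effector adults and 14 in neonates. The yardstick itself was lower in effector adults (3.40) and neonates (3.79) than in naive adults (4.09), so these counts do not show a rise. Of the genes above background in effector but not naive adults, Ncr1 and Cd160 had lower means in effector adults (3.50 against 3.86 and 3.51 against 3.95). Gzma, Gzmb and Ifng had higher ones, Gzma by 0.06. The markers of this list called higher were Il2rb (1.56 ± 0.21), Tnfsf10 (1.06 ± 0.17), Gzmb (1.01 ± 0.33) and Itga2 (0.70 ± 0.22; limma adjusted p = 4.34e-05, 0.000194, 0.0281 and 0.0211). The marker called lower was Nkg7 (-0.63 ± 0.14; limma adjusted p = 0.00254), with means of 7.28 in naive and 6.65 in effector adults. Gzmb reached the level set by the filter on dim features on 5 effector arrays, but on only 1 naive and 1 neonatal array. The filter thus favoured its rise, and the naive mean of Gzmb, 3.71, lay below background. Its call ended in 5 of 12 refits, those without naive female array 1, naive male array 1 or 3, effector male array 3 or effector female array 2 (0.92, 0.94, 0.95, 0.83 and 0.74; limma adjusted p up to 0.0774), and that of Itga2 without naive female array 3 (0.53; limma adjusted p = 0.0511). The NK markers Eomes, at 3.27 in naive adults, 3.29 in effector adults and 3.30 in neonates, and Ncr1, at 3.86, 3.50 and 3.83, stood against background yardsticks of 4.09, 3.40 and 3.79. Other markers of the same list lay above the yardstick in all 3 conditions. Among them were Tbx21 (5.01, 5.41 and 4.94), Prf1 (5.44, 5.17 and 5.24), Xcl1 (4.74, 4.99 and 5.18) and Ccl5 (7.85, 7.91 and 7.73). Of 10 T cell markers 1 rose and 2 fell in effector adults, with a mean level of 5.16 to 5.30 on naive, 4.99 to 5.20 on effector and 5.38 to 5.64 on neonatal arrays. In neonates 2 of the 10 were higher and 0 lower than in naive adults, and 3 were higher and 0 lower than in effector adults. Of 5 tested mast cell and basophil markers 0 rose and 2 fell in effector adults, and 2 were higher and 0 lower in neonates than in naive adults, with a median of 1.02 there. Among macrophage markers 1 of 6 rose and 2 fell, among neutrophil markers 0 of 3 rose and 1 fell, and among B cell markers 1 of 2 rose and 0 fell in effector adults. The part of other cells in the values of Klrb1b was not tested, and in bulk RNA fewer cells of a type cannot be told apart from less RNA per cell. Array medians ran from 4.44 to 4.64, and arrays of a group correlated at r = 0.904 to 0.974, lowest in neonates and naive males.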

How the data were processed

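Total RNA was labelled with biotin and hybridised to 1 array per sample. The deposited values are log2 levels made with Affymetrix Expression Console and RMA, per the submitters' processing notes, which corrects background, equalises the distributions of the arrays and can thus shift dim features. The sources used here give no versions and no batches. Precision is limited by the 3 arrays per group.

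Of 41345 features, 23521 carried exactly 1 symbol. Features above percentile 40 of their array on at least 3 arrays were kept, and of several features of a gene the one with the highest mean was used, which left 16257 genes. limma 3.58.1 in R 4.3.3 fitted 5 group means to all 15 arrays, with 10 residual and 5.05 prior degrees of freedom. The 8 comparisons weighted adult sexes equally. Tests were two-sided, adjusted by Benjamini-Hochberg over all genes and called at an adjusted p under 0.05. Standard errors come from that fit. The script was checked on simulated data. By rule, the named genes are the members, up to 4 called genes per list with the largest differences, and the 3 genes (unnamed gene models skipped) most correlated with each member called between conditions. Gata3, further NK and group 1 innate lymphoid cell markers, Gabarapl1 and Klrb1-ps1 were named outside that rule. No single gene was named from the T cell, mast cell and basophil, macrophage, neutrophil and B cell lists. The members and lists were chosen with earlier results of these data known. Upstream windows came from the RefSeq promoter table, which matched 6 of the 8 members. Figures used matplotlib 3.10.9. The alternatives were other filters, scalings, priors, weights, a replicate block, fewer arrays and the mean of a gene's features.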

Additional observations from a re-analysis of the deposited data

How the results depend on the processing

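Klrb1b kept its higher level in effector than naive adults, and its call, under all 10 settings that used every array of the comparison (1.15 to 1.37). Klrb1f was not called without the filter or with only the arrays compared (limma adjusted p = 0.0518 and 0.0516). Without the filter 4 of 8 members were called, with Klrc1 in place of Klrb1f. Klrc1 in turn was not called with arrays shifted to a common median or after quantile normalization (limma adjusted p = 0.105 and 0.192). The number of members called between effector and naive adults, 4 of 6, was 1 with a filter at percentile 60 (of 2 tested), 1 with arrays shifted to a common median and 1 after quantile normalization, each time Klrb1b, and 0 to 4 with 1 array left out, 0 without effector female array 2. In males alone it was 1 with shifted arrays, 2 with array weights, 1 with only the arrays compared and 0 to 2 with 1 array left out, and in females 1 with only the arrays compared. Against neonates it was 0 to 1 for naive adults with 1 array left out, and for effector adults 0 after quantile normalization and 0 to 2 with 1 array left out. Some directions turned. For Klrb1c the neonate minus effector difference was -0.06 with shifted arrays, -0.12 after quantile normalization and -0.01 with array weights, and for Klrb1f it was -0.01 and -0.07 with the first 2 of these. Klre1 between effector and naive adults was 0.13 and 0.17 likewise, Klrg1 in females 0.09 with shifted arrays and Klrk1 in neonates against naive adults 0 with array weights. With 1 array left out, neonates against naive adults ran from -0.48 to 0.19 for Klrg1, -0.14 to 0.22 for Klrd1, -0.31 to 0.17 for Klrc1, -0.81 to 0 for Klrb1b, -0.04 to 0.30 for Klrk1 and -1.10 to 0.02 for Tyrobp. Klrd1 and Klrk1 passed the filter in only 6 of these 9 refits. Their ranges lack the refit without their highest neonatal array, array 2 for Klrd1 and array 3 for Klrk1. Neonates against effector adults ran from -0.64 to 0.03 for Klrg1, -0.13 to 0.17 for Klrb1c and -0.22 to 0.90 for Tyrobp. Effector against naive adults ran from -0.07 to 0.04 for Klre1 and, in females, -0.10 to 0.02 for Klrg1, and the sexes' responses for Klrb1b differed by -1.11 to 0.50. The cause was not tested.

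Over all genes, the neonate against naive count of 1652 was 705 with array weights and 676 with only the arrays compared, the neonate against effector count of 3346 was 2068 with array weights, the effector against naive count in females of 2276 was 3745 with array weights, the naive female against male count of 34 was 19 and 8, and the effector female against male count of 5 was 11 and 8. With 1 array left out these counts ran from 1027 to 1849, 2067 to 3758, 1361 to 1808, 16 to 84 and 4 to 5, and in males from 2603 to 4106 (4048 with all arrays). Same-numbered replicates did not deviate together over all genes (r from -0.11 to 0.099 over 30 pairs). An effect shared by fewer genes would go unseen in this correlation, so it cannot settle whether the numbers pair the arrays. With a replicate block 5 members were called between effector and naive adults, Klrk1 in addition, and 5511 genes in place of 5628. Dim features limit Klrc1 and Klre1, which lay below background on every array, and Klrd1, Klrk1, Klrb1c and Klrb1f, which lay near it.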
